A study of Rattus norvegicus with 8 samples.

Results

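Genes of the monocyte and macrophage lineage were examined in the whole blood of hypertensive rats before and after administration of Chios mastic gum (CMG), the resin of Pistacia lentiscus var. Chia. Of 38 lineage genes chosen by name, 35 were rows of the deposited table of 17446 genes, and Ccr2, Itgax and Emilin2 were not analysed here. Cd163, the hemoglobin scavenger receptor of macrophages, had 0 counts in all 8 libraries, which allows up to 3 counts per library, or 0.227 to 0.723 CPM (counts per 1e+06 counts of a library). Ms4a7, a tetraspan membrane gene of macrophages, had at most 3 counts in any library. The remaining 33 genes passed the filter on low counts in every comparison, and these 33 are counted below.

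The animals were male Wistar rats of 12 to 14 weeks with no engineered allele, and all of them carried a hypertension model. In the AngII model, angiotensin II was infused at 0.4 mg/kg per day by an osmotic minipump with a stated duration of 4 weeks, and libraries were made at week 1 before CMG and at week 5 after it. In the DOCA–HS model, deoxycorticosterone acetate was injected at 100 mg/kg 1 time per week with 0.9% NaCl and 1% KCl in the drinking water, and libraries were made at week 3 before CMG and at week 7 after it. CMG was given by gavage at 220 mg/kg daily for 4 weeks in both models. Each of the 4 groups held 2 libraries. As no library of rats without CMG was analysed here, CMG and the further 4 weeks of the model cannot be told apart. The labels do not say whether the 2 libraries of a group came from separate rats, so the p-values measure the spread between these libraries only.

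Blood monocytes arise in bone marrow under the transcription factor PU.1, encoded by Spi1, together with C/EBP factors, and depend on the growth factor receptor encoded by Csf1r. Classical monocytes are rich in Cd14, Ccr2 and Vcan, whereas patrolling monocytes carry more Cx3cr1, Csf1r and the activating Fc receptor for IgG. In tissues, monocytes can become macrophages, which take up and digest material through scavenger receptors, Fc receptors and lysosomal cathepsins. In whole blood, fewer cells of a type and less RNA per cell cannot be told apart.

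The libraries held 4149104 to 13205565 counts, and the hemoglobin genes Hbb and LOC100134871 took 61.9% to 84.3% of them. Replicate 2 of the DOCA–HS group after CMG stood apart. It had 651764 counts outside hemoglobin and 22 of the 35 lineage genes at 10 counts or more, against 29 to 33 in the other libraries. Monocyte genes were present in every library, with Lyz2 at 345 to 628 and Csf1r at 18.1 to 104.6 normalized CPM, in which library totals were scaled so that the bulk of genes is level between libraries. Of 13 measured markers of tissue macrophages, such as the complement genes C1qa, C1qb and C1qc, 8 to 11 were at 0 in each library, and only Gpnmb passed the filter. Markers of blood monocytes were thus present, and most defining genes of resident tissue macrophages were at 0.

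In the AngII model, lineage genes were mostly higher after CMG administration than before. Tnfaip2, a gene induced by tumor necrosis factor that promotes membrane nanotubes between macrophages, was upregulated, as was Clec4a3, a C-type lectin receptor of the Dcir family. The criterion for a changed gene was that of the study, an absolute log2 fold change above 1.5 with an unadjusted p of at most 0.05, here in edgeR. It called 2 of 33 lineage genes upregulated, with 0.903% of all 7201 genes tested called so, and 0 of 33 downregulated, with 0.333% of all genes. No lineage gene was lower at an unadjusted p of at most 0.05, against 1.61% of all genes, and DESeq2 called none downregulated either. At that p alone, 11 of 33 were higher, namely Tnfaip2, Clec4a3, Sirpa, Itgam, Csf2ra, Fcgr1a, Fcgr3a, Spi1, Clec4a1, Csf1r and Cd68, against 5.04% of all genes. The median log2 fold change of the lineage genes was 0.65, and that of all genes tested was -0.01. Both libraries after CMG lay above both libraries before it for 19 of 33 lineage genes, against 21.3% of all genes, and below them for 3 of 33, Ctsb, Ctsd and Plac8, against 18.5%. After adjustment over all genes in edgeR, no gene of the table passed 0.05 (0.00%), and the smallest adjusted p of a lineage gene was 0.628. DESeq2 also gave 0 lineage genes an adjusted p under 0.05, against 0.0417% of all genes. With the replicate number as a block, edgeR gave 8 lineage genes an adjusted p under 0.05, against 2.29% of all genes. Without the filter on low counts, edgeR gave 2, against 0.456% of all genes. Single libraries set the number of calls, with the remaining library of a group then taken to vary as the others do. Without replicate 1 before CMG, 7 lineage genes were upregulated (Clec4a3, Csf1r, Cx3cr1, Fcgr3a, Itgam, Lilrb4 and Tnfaip2), against 2.38% of all genes in that fit. Without replicate 2 before CMG, Tnfaip2 alone was, against 1.20% of all genes, with a lineage median of 0.42. Without replicate 1 after CMG, Tnfaip2 was upregulated and Cst3 downregulated, against 1.21% and 3.76% of all genes, and 4 lineage genes had an adjusted p under 0.05, against 3.47% of all genes. Without replicate 2 after CMG, 4 were upregulated and Cd14 downregulated, against 0.923% and 0.798% of all genes.

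In the DOCA–HS model, only Tnfaip2 met the criterion among the lineage genes. It was the 1 of 33 called upregulated, with 1.79% of all 7720 genes tested called so. No lineage gene was called downregulated by edgeR or by DESeq2, with 0.259% of all genes called so, and none was lower at an unadjusted p of at most 0.05, against 0.440% of all genes. DESeq2 called Cst3 upregulated in place of Tnfaip2, with 2.73% of all genes called so. At an unadjusted p of at most 0.05, 2 of 33 lineage genes were higher, Tnfaip2 and Cst3, against 2.73% of all genes. Libraries after CMG lay above those before it without overlap for 10 of 33, against 14.7% of all genes, and below them for 3 of 33, Cd14, Fcgr2b and Plac8, against 21.1%. Their median was 0.48 and the all-gene median -0.04, with 28 of 33 lineage genes above 0 against 47.5% of all genes. In the AngII model, 26 of 33 were above 0 against 49.0% of all genes. The smallest adjusted p of a lineage gene in edgeR was 0.997. Without replicate 2 after CMG, the library that stood apart, 4 lineage genes were upregulated (Cx3cr1, Fcgr3a, Lilrb4 and Tnfaip2), against 1.15% of all genes in that fit. In it, 5 had an adjusted p under 0.05, against 1.42% of all genes, and the median was 0.57. Without replicate 1 after CMG, 3 were upregulated and 3 downregulated, against 7.46% and 13.6% of all genes, and the lineage median was -0.09 with an all-gene median of -0.37. With either library before CMG left out, 0 were called, against 0.333% and 0.757% of all genes called upregulated.

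**Figure D1:**
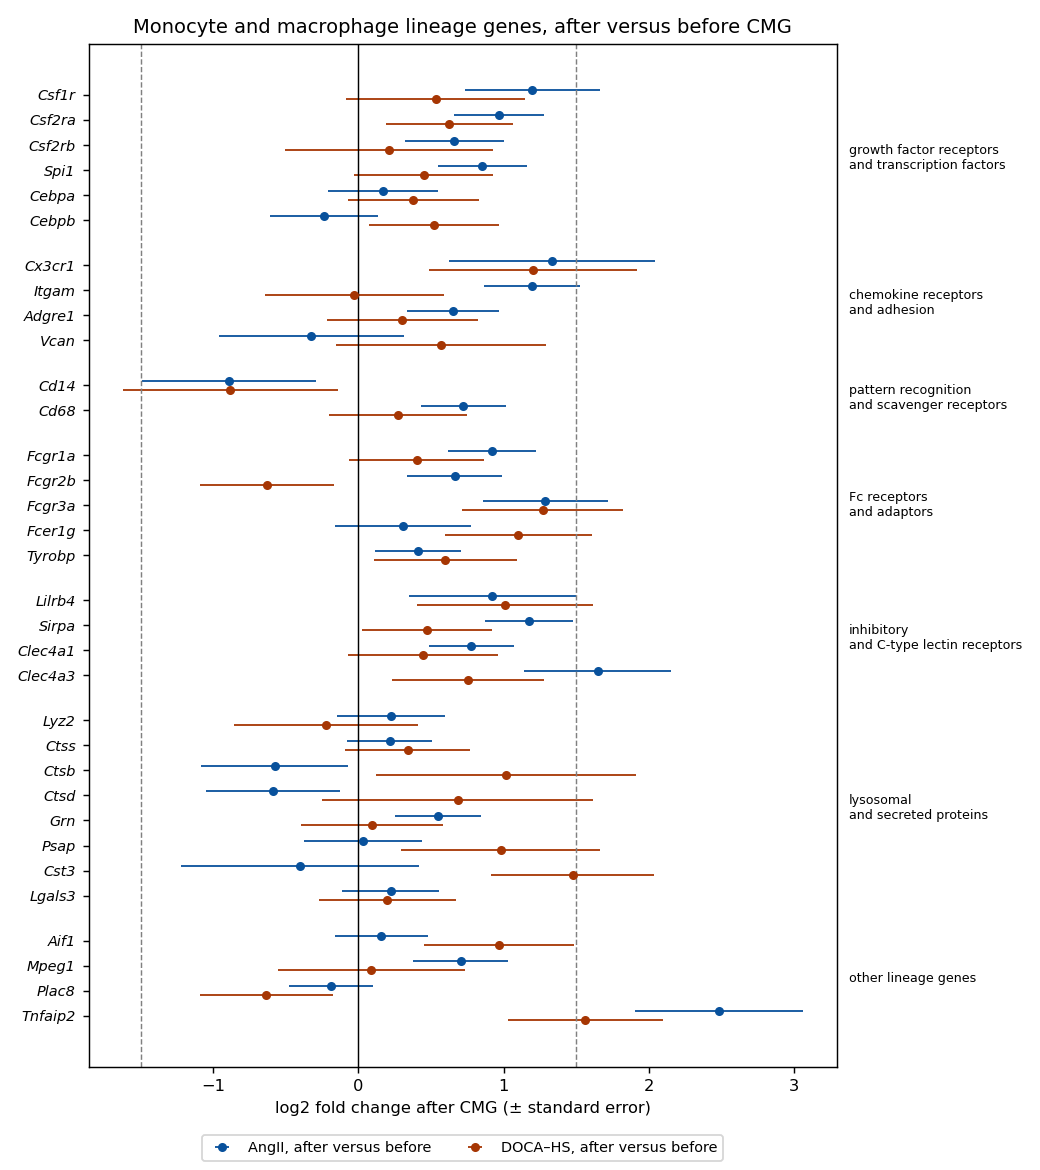
The horizontal axis is the log2 fold change after versus before CMG in each model, with the standard error as bars, for the 33 lineage genes tested, ordered by role. Dashed lines mark the fold limits of the criterion at 1.5 and -1.5, and Tnfaip2 lies beyond 1.5 in both models while Clec4a3 does so in the AngII model alone.

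The scale used to compare libraries changed the direction in the DOCA–HS model. With the trimmed mean of M-values (TMM), which aligns the bulk of genes between libraries, the lineage median was 0.48. With total counts, it fell to -0.24 while the median of all genes fell to -0.76, so the lineage genes stood 0.52 above all genes on this scale and 0.51 above them with TMM. In the AngII model, total counts gave a lineage median of 0.98 and an all-gene median of 0.36, a distance of 0.61, against 0.66 with TMM. Levels of genes in each library, and whether libraries overlapped, are given on the TMM scale unless stated otherwise.

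Each library after CMG was also set against each library before it. The lineage median of the log2 ratio was 0.46, 0.85, 0.34 and 0.69 over the 4 pairs of the AngII model, where the all-gene median lay between -0.03 and 0.05. Replicate 1 of the DOCA–HS group after CMG gave 0.61 and 0.49 against the libraries before CMG. Replicate 2 gave -0.06 and -0.02, where the all-gene medians were -0.34 and -0.30. The lineage median was thus above 0 for both AngII libraries after CMG and for 1 of the 2 DOCA–HS libraries after CMG. In every pair, those of DOCA–HS replicate 2 included, it was above the all-gene median. The all-gene medians of that replicate were below 0, so the bulk of genes was not level for it on this scale.

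**Figure D2:**
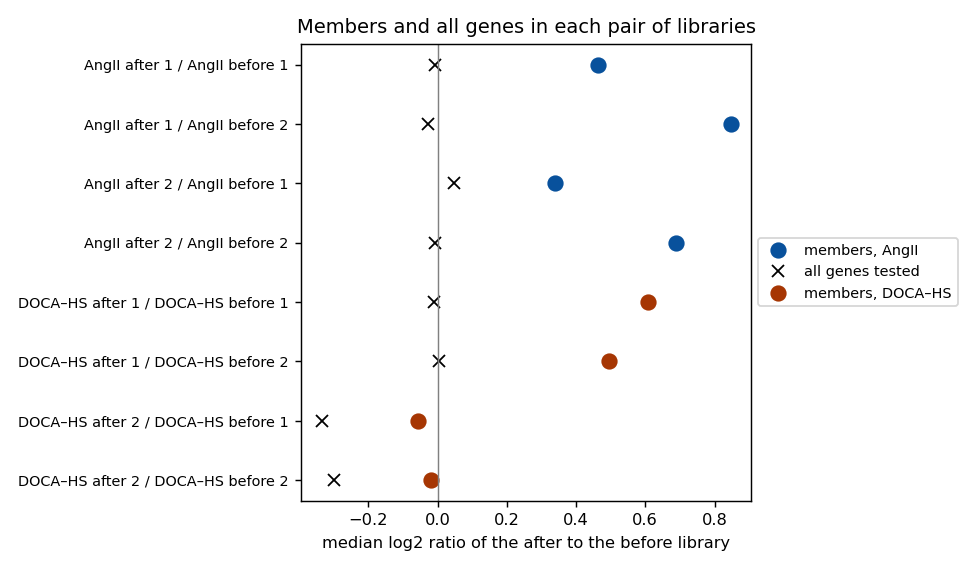
Each row is a pair of an after and a before library of the same model, and the horizontal axis is the median log2 ratio of normalized CPM over the 33 lineage genes (circles) and over all genes tested (crosses). The circles of the AngII model lie between 0.34 and 0.85, and those of DOCA–HS replicate 2 lie near 0 with the crosses below them.

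Tnfaip2 was low before CMG in the AngII model. Its level was 0.314 and 1.01 normalized CPM before CMG, from 4 and 6 counts, and 2.72 and 3.62 after it, from 17 and 49 counts. For DOCA–HS rats, it was 2.10 and 2.23 before CMG and 8.30 and 2.81 after it, and the last value rested on 4 counts. Libraries before and after did not overlap in either model, although a single library, replicate 1 of the DOCA–HS group after CMG, was far above the rest. The log2 fold change in edgeR was 2.48 (SE 0.58, adjusted p = 0.628) in the AngII model. With DOCA–HS, it was 1.56 (SE 0.53, adjusted p = 0.997), and it was 0.38 without replicate 1 after CMG. Fitted over both models with all 8 libraries, the average change was 1.92 (SE 0.40, adjusted p = 0.757), and Tnfaip2 was the only lineage gene that met the criterion there, with 0.163% of all 7994 genes tested called upregulated. Its calls in both models were known when the genes were chosen, so they are given as a description.

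Clec4a3 was at 3.46 and 1.18 normalized CPM before CMG in the AngII model and at 10.2 and 5.62 after it. Under DOCA–HS, it was at 6.59 and 4.25 before CMG and at 11.99 and 4.92 after it. The AngII libraries did not overlap, while replicate 2 of the DOCA–HS group after CMG lay between the 2 libraries before CMG. The log2 fold change was 1.65 (SE 0.51, adjusted p = 0.628 in edgeR) in the AngII model and 0.75 (SE 0.53) in the DOCA–HS model. Without AngII replicate 2 before CMG, which had 7 counts, the AngII value was 1.14, below the fold limit. The neighboring family member Clec4a1 had an AngII log2 fold change of 0.78 (SE 0.29). As members of this family are alike in sequence, reads may be shared between them, and their separate values are uncertain to that extent.

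The regions just before the start of lineage genes were read from RefSeq (GRCr8 assembly), which is another build than the rn6 genome used by the authors for alignment. Of the 35 lineage genes, 24 had an entry and 11 were named only. The windows of 250 bases before the start of Clec4a3, Fcgr3a, Csf2ra and Tnfaip2 are shown because these genes were called upregulated or were higher without overlap in both models and had an entry, with the letters GAGGAAG, a core motif bound by PU.1, in capitals on either strand (CTTCCTC on the other). The windows lie at chr4:157886508-157886757 on the plus strand, chr13:85782386-85782635 on the plus strand, chr14:118118-118367 on the minus strand and chr6:136297832-136298081 on the plus strand, and each is printed 5′ to 3′.
Clec4a3: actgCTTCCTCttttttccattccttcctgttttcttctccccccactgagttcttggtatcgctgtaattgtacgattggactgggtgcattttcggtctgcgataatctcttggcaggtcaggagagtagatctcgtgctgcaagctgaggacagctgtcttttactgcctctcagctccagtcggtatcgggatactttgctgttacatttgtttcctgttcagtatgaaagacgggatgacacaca
Fcgr3a: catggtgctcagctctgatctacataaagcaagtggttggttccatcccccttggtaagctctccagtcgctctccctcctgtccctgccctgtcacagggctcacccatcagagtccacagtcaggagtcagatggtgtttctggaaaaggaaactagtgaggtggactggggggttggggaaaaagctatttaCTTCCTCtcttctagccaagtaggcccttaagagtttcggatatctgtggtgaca
Csf2ra: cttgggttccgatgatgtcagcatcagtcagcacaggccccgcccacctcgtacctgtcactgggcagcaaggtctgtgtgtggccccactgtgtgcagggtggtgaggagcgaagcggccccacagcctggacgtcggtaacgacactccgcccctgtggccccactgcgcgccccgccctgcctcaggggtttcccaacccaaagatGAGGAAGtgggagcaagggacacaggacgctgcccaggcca
Tnfaip2: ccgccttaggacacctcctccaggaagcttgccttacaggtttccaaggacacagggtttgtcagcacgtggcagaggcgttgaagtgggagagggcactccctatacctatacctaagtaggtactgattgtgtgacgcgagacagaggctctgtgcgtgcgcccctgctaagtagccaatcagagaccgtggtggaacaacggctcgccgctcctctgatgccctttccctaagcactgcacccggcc

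The GAGGAAG motif began 41 bases before the start in Csf2ra, 55 bases in Fcgr3a and 246 bases in Clec4a3, and none of these letters were in the Tnfaip2 window. Among the 24 lineage genes with a window, 9 held the motif on either strand (37.5%), namely Adgre1, Cd14, Clec4a1, Clec4a3, Csf1r, Csf2ra, Ctss, Fcgr3a and Itgam. Of all 33469 windows of this length, 10.2% held it, a share counted by window, while the lineage genes were counted by gene. The C/EBP motif TTGCNNAA was in 5 of the 24 (20.8%), namely Adgre1, Cst3, Ctsd, Itgam and Lyz2, and in 9.22% of all windows. The 9 genes with GAGGAAG had an AngII median of 0.97 on the log2 scale, and the 13 tested genes with a window and no such letters had 0.23. For DOCA–HS rats, the medians were 0.45 and 0.52. The 5 genes with TTGCNNAA had an AngII median of 0.23 and the 17 without it 0.72, and the DOCA–HS medians were 0.30 and 0.52. A match of letters is a description of the window and not a binding site.

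Of 6 growth factor receptor and transcription factor genes, 3 were higher in the AngII model at an unadjusted p of at most 0.05 in edgeR, against 5.04% of all genes. These were Csf1r, Csf2ra and Spi1. In the DOCA–HS model, 0 of the 6 were, against 2.73% of all genes. Csf1r, the receptor for macrophage colony-stimulating factor, was at 41.4 and 18.1 normalized CPM before CMG and at 82.5 and 53.8 after it under AngII. With DOCA–HS, Csf1r was at 56.9 and 39.6 before CMG and at 104.6 and 33.05 after it, so that these libraries overlapped. Its log2 fold change was 1.20 (SE 0.46, adjusted p = 0.701 in edgeR) in the AngII model, short of the fold limit, and 0.53 (SE 0.62) in the DOCA–HS model.

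Csf2ra, the ligand-binding chain of the receptor for granulocyte-macrophage colony-stimulating factor, did not overlap in either model. It was at 10.1 and 7.43 normalized CPM before and 17.1 and 17.0 after CMG under AngII, and at 10.5 and 13.8 before and 19.5 and 17.6 after it under DOCA–HS. The fitted log2 fold changes were 0.97 (SE 0.31) and 0.63 (SE 0.44), and the average over both models was 0.79 (SE 0.24, adjusted p = 1.00 in edgeR). Csf2rb, the shared signaling chain, had log2 fold changes of 0.66 (SE 0.34) and 0.21 (SE 0.72).

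Spi1, which encodes PU.1, was at 13.6 and 18.1 normalized CPM before CMG and at 29.3 and 26.8 after it under AngII. Under DOCA–HS, Spi1 was at 20.4 and 25.5 before and 24.0 and 39.4 after CMG, and these libraries overlapped. The log2 fold change was 0.85 (SE 0.30, adjusted p = 0.659 in edgeR) in the AngII model and 0.45 (SE 0.48) in the DOCA–HS model. The C/EBP factors did not pass the test. Cebpa had log2 fold changes of 0.17 (SE 0.38) and 0.38 (SE 0.45), and Cebpb had -0.24 (SE 0.37) and 0.52 (SE 0.45).

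Of the chemokine receptor and adhesion genes, Cx3cr1, the fractalkine receptor of patrolling monocytes, rested on few counts. It was at 2.36 and 0.169 normalized CPM before CMG and at 4.64 and 2.96 after it under AngII, and AngII replicate 2 before CMG held 1 count. For DOCA–HS rats, it was at 2.44 and 0.744 before and at 5.15 and 0.703 after CMG, the last from 1 count. The AngII libraries did not overlap, and the DOCA–HS libraries did. The log2 fold changes in edgeR were 1.33 (SE 0.71) and 1.20 (SE 0.72). Without AngII replicate 2 before CMG the AngII value was 0.62, and without AngII replicate 1 before CMG it was 4.36.

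Itgam encodes the integrin chain CD11b of monocytes and neutrophils. It was at 9.59 and 6.25 normalized CPM before CMG and at 17.1 and 19.2 after it under AngII, with a log2 fold change of 1.19 (SE 0.33, adjusted p = 0.628 in edgeR). With DOCA–HS, the libraries after CMG lay on either side of those before it, at 16.9 and 3.52 against 10.5 and 12.7, and the log2 fold change was -0.03 (SE 0.61). Adgre1, which encodes F4/80, had 0.65 (SE 0.32) and 0.30 (SE 0.52), and Vcan, a proteoglycan gene of classical monocytes, had -0.32 (SE 0.64) and 0.57 (SE 0.72).

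Cd14, the co-receptor for lipopolysaccharide, had values below 0 in both models and did not pass the test in either. It was at 3.14 and 1.86 normalized CPM before CMG and at 0.480 and 2.00 after it under AngII. Under DOCA–HS, it was at 1.44 and 2.66 before CMG, at 1.31 in replicate 1 after it and at 0 counts in replicate 2. The AngII libraries overlapped, and the DOCA–HS libraries after CMG were both below those before it. The log2 fold changes in edgeR were -0.89 (SE 0.60) and -0.88 (SE 0.74). Cd68, a lysosomal scavenger receptor, had 0.72 (SE 0.29, adjusted p = 0.719 in edgeR) in the AngII model and 0.27 (SE 0.47) in the DOCA–HS model.

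Among the Fc receptors, Fcgr3a, an activating receptor for IgG, had nearly equal log2 fold changes in the 2 models. It was at 7.86 and 3.38 normalized CPM before CMG and at 16.3 and 11.9 after it under AngII. For DOCA–HS rats, it was at 6.76 and 2.97 before and at 14.8 and 7.73 after CMG. Libraries before and after CMG did not overlap in either model, narrowly so in the DOCA–HS model, where 7.73 came from 11 counts. The log2 fold change was 1.29 (SE 0.43, adjusted p = 0.628 in edgeR) in the AngII model and 1.27 (SE 0.56, adjusted p = 0.997) in the DOCA–HS model. The difference between models was -0.01 (SE 0.78). The average was 1.28 (SE 0.36, adjusted p = 1.00). In current annotation, Fcgr3a is the gene also named Fcgr4, whose window is shown above, and the symbol is an older name of Fcgr2a, a separate row here. Which of these receptors the row counts is therefore uncertain, and reads may be shared among these related genes.

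Fcgr1a, the high-affinity receptor for IgG, was at 5.82 and 5.41 normalized CPM before CMG and at 11.997 and 9.17 after it under AngII. With DOCA–HS, Fcgr1a was at 7.04 and 10.6 before and 13.3 and 9.14 after CMG, with overlap. edgeR gave log2 fold changes of 0.92 (SE 0.31, adjusted p = 0.628) and 0.40 (SE 0.46).

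Fcgr2b, the inhibitory receptor for IgG, had values of opposite sign in the models. It is described because it was the only lineage gene with an unadjusted p of at most 0.05 for the difference between the models, which was seen after its values were computed. It was at 3.54 and 2.70 normalized CPM before CMG and at 4.48 and 5.40 after it under AngII. Under DOCA–HS, it was at 4.76 and 5.42 before and at 3.46 and 2.81 after CMG, the last from 4 counts. Libraries after CMG lay above those before it in the AngII model and below them in the DOCA–HS model. The values of log2 fold change were 0.66 (SE 0.33) and -0.63 (SE 0.46), and the difference, DOCA–HS minus AngII, was -1.27 (SE 0.52, adjusted p = 0.881 in edgeR).

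The signaling adaptors Fcer1g and Tyrobp, which carry activating motifs for Fc and other receptors, had positive values in both models. Fcer1g was at 56.8 and 27.0 normalized CPM before and 67.3 and 36.0 after CMG under AngII, and at 33.7 and 51.6 before and 80.9 and 102 after it under DOCA–HS. Its libraries overlapped in the AngII model and not in the DOCA–HS model, with log2 fold changes of 0.31 (SE 0.47) and 1.10 (SE 0.51). Tyrobp was at 22.8 and 24.2 before and 33.3 and 28.2 after CMG under AngII, and at 22.2 and 33.2 before and 33.7 and 50.6 after it under DOCA–HS. The Tyrobp libraries did not overlap in either model, narrowly so in the DOCA–HS model, with log2 fold changes of 0.41 (SE 0.30) and 0.60 (SE 0.49).

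**Figure D3:**
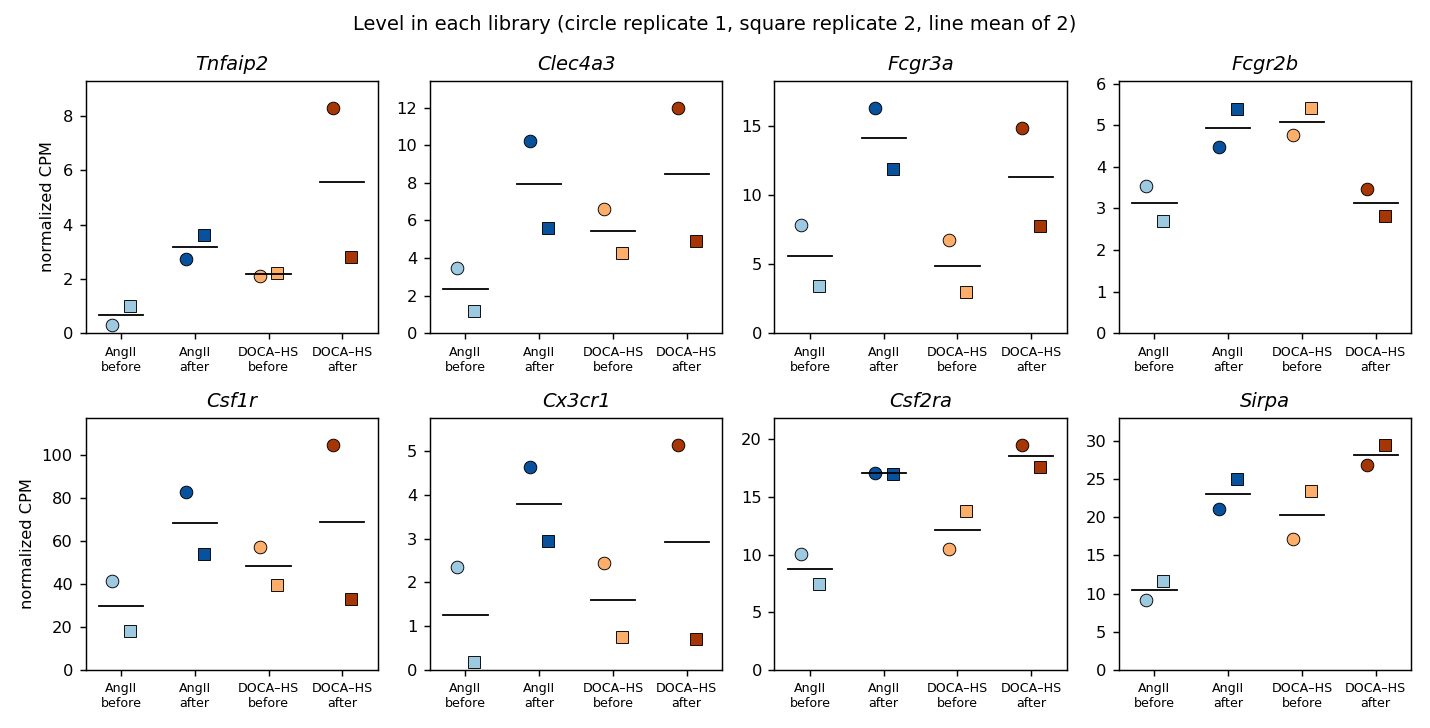
Normalized CPM of 8 lineage genes in each of the 8 libraries, with circles for replicate 1, squares for replicate 2 and a line for the mean of the 2 libraries of a group. Fcgr2b is higher after CMG for AngII and lower in the DOCA–HS model, and replicate 1 of the DOCA–HS group after CMG holds the highest Tnfaip2, Clec4a3, Csf1r and Cx3cr1 levels.

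Inhibitory and lectin receptors had 4 of 4 log2 fold changes above 0 in each model, against 49.0% of all genes under AngII and 47.5% under DOCA–HS. Sirpa, the inhibitory receptor that binds CD47, was at 9.20 and 11.7 normalized CPM before and 21.1 and 25.1 after CMG under AngII, and at 17.2 and 23.5 before and 26.9 and 29.5 after it under DOCA–HS. Neither model had overlap between its libraries. Fold changes on the log2 scale were 1.18 (SE 0.30, adjusted p = 0.628 in edgeR) and 0.48 (SE 0.45), and the average was 0.81 (SE 0.27, adjusted p = 1.00). Lilrb4, another inhibitory receptor, had 0.92 (SE 0.58) and 1.01 (SE 0.61), with overlap in both models.

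Over both models, 5 of 33 lineage genes were higher after CMG without overlap in each model (Csf2ra, Fcgr3a, Sirpa, Tnfaip2 and Tyrobp), against 2.23% of 7118 genes. Plac8, a cysteine-rich protein gene of blood cells, was the 1 of 33 that was lower without overlap in each, against 4.51% of genes, and Fcgr2b the 1 of 33 with opposite directions, against 5.49%. For the 5 genes higher in each model, this held on the TMM scale only. With total counts, DOCA–HS replicate 2 after CMG lay below both libraries before CMG for each of the 5. Sirpa, for example, was then at 32.2 and 27.0 CPM before and 38.7 and 10.1 after CMG. Plac8 was at 19.8 and 23.5 normalized CPM before and 18.6 and 18.7 after CMG under AngII, and at 26.8 and 29.9 before and 21.5 and 14.1 after it under DOCA–HS. Its log2 fold changes were -0.19 (SE 0.29) and -0.64 (SE 0.46), and the AngII value was 0.19 when total counts set the scale. In the average over both models, 10 of 33 lineage genes were higher at an unadjusted p of at most 0.05 in edgeR, namely Tnfaip2, Fcgr3a, Csf2ra, Sirpa, Clec4a3, Fcgr1a, Spi1, Cx3cr1, Clec4a1 and Lilrb4, against 2.28% of all genes, and 0 were lower, against 1.63%. The average was above 0 for 30 of 33, against 53.0% of all genes. DESeq2 gave 1 lineage gene, Tnfaip2, an adjusted p under 0.05 in that average, against 0.1% of all genes. By edgeR, there were 0 with the filter on low counts and 2 without it, against 0.188% of all genes without it. Without replicate 1 before CMG of either model, 3 lineage genes met the criterion in the average (Cx3cr1, Fcgr3a and Tnfaip2), against 0.706% (AngII library left out) and 0.421% (DOCA–HS library left out) of all genes called upregulated.

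Of 8 genes of lysosomal and secreted proteins, none met the criterion in either model. The share of all genes called upregulated was 0.903% under AngII and 1.79% under DOCA–HS, and 0.333% and 0.259% were called downregulated. The median of the 8 genes was 0.12 under AngII and 0.51 under DOCA–HS. Lyz2, the lysozyme gene of monocytes and neutrophils, was at 355 and 373 normalized CPM before and 404 and 434 after CMG under AngII, and at 359 and 628 before and 498 and 345 after it under DOCA–HS. The AngII libraries did not overlap, and the DOCA–HS libraries did. Log2 fold changes were 0.23 (SE 0.37) and -0.22 (SE 0.63). Ctss, the cathepsin that processes antigen in the endosome, was at 14.6 and 13.3 before and 14.4 and 17.6 after CMG under AngII, and at 18.9 and 19.2 before and 23.0 and 25.3 after it under DOCA–HS. Its log2 fold changes were 0.21 (SE 0.29) and 0.34 (SE 0.43), and the DOCA–HS value was -0.46 when total counts set the scale. Lgals3, which encodes galectin-3, had 0.22 (SE 0.33) and 0.20 (SE 0.47).

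Ctsb and Ctsd, which encode the lysosomal proteases cathepsin B and cathepsin D, had values below 0 in the AngII model and above 0 in the DOCA–HS model. Ctsb was at 2161 and 2603 normalized CPM before and 1953 and 1181 after CMG under AngII, and at 1025 and 1461 before and 934 and 4068 after it under DOCA–HS. The highest level was in DOCA–HS replicate 2 after CMG. With total counts as the scale, Ctsb was at 1395 CPM in that library, where all libraries ranged from 1342 to 2082. The fitted log2 fold changes were -0.58 (SE 0.51) and 1.02 (SE 0.90) for Ctsb and -0.59 (SE 0.46) and 0.68 (SE 0.93) for Ctsd. Without DOCA–HS replicate 2 after CMG, the DOCA–HS values were -0.40 and -1.11.

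Ctsb moved with erythroid markers such as Alas2, the heme synthesis enzyme of red cell precursors. There were 8.55 to 11.4 Ctsb counts per 100 counts of 6 erythroid markers over the 8 libraries, a range of 1.33-fold. Only 0.213% of all genes kept as even a ratio to these markers. Such shares also depend on depth, as few counts make a ratio less even, and Ctsb had a mean of 15158.5 counts. The order of the libraries by normalized CPM of Ctsb, and also of Ctsd, was that of the erythroid markers but for an exchange of the lowest pair. This order follows in part from the scale, as genes and markers were divided by the same TMM factors (0.343 to 1.88). With total counts, the range was 1342 to 2082 CPM for Ctsb and 12256 to 20682 for the erythroid markers. For comparison, the ratio of Csf1r to the same markers ranged over 14.1-fold. These genes were chosen after their values were seen, and the part of erythroid RNA in the Ctsb and Ctsd values was not tested.

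Cst3, which encodes the protease inhibitor cystatin C, moved with platelet markers such as Pf4. It was at 257 and 86.3 normalized CPM before and 223 and 35.0 after CMG under AngII, and at 125 and 132 before and 316 and 396 after it under DOCA–HS. There were 40.2 to 59.9 Cst3 counts per 100 counts of the platelet markers, a range of 1.49-fold, and 0.0876% of all genes were as even. edgeR gave log2 fold changes of -0.40 (SE 0.82) and 1.48 (SE 0.56, adjusted p = 0.997). The platelet genes Pf4 and Treml1 were upregulated in the DOCA–HS model beside it, with log2 fold changes of 1.72 (SE 0.63) and 1.92 (SE 0.69), and the summed platelet markers were at 208 and 292 normalized CPM before CMG and at 604 and 956 after it. With total counts as the scale, these sums overlapped, at 391 and 336 CPM before and 868 and 328 after CMG. On that scale Cst3 overlapped too, at 234 and 152 CPM before and 455 and 136 after CMG under DOCA–HS. The part of platelet RNA in the Cst3 value was not tested.

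Grn, which encodes progranulin, followed the summed monocyte markers most evenly. There were 5.25 to 7.16 Grn counts per 100 counts of these markers, a range of 1.36-fold, and 0.0876% of all genes were as even. Most of that sum is Lyz2, and every gene of this monocyte list is itself a lineage gene studied here. Other lineage genes differed widely. Of all genes, 97.5% were at least as even as Cx3cr1, 94.8% as Tnfaip2, 81.6% as Clec4a3, 65.4% as Csf1r, 33.1% as Sirpa and 5.83% as Fcgr1a. Few counts alone make a ratio less even. The mean was 27.4 counts for Cx3cr1, 30.9 for Tnfaip2 and 64.1 for Clec4a3, against 352.5 for Grn and 585.6 for Csf1r. The part of counting error in these shares was not tested. Among the blood cell lists, the monocyte list gave the most even ratio for 20 of 33 lineage genes, against 28.0% of all genes. As lineage genes were here set against other lineage genes, this share is a description and no independent evidence of their cell type. It was the T cell list for Lyz2 and Plac8, the cytotoxic list for Spi1 and Fcgr3a and the B cell list for Cd14. For Fcer1g, Tyrobp, Aif1 and Psap it was the neutrophil list, for Ctsb, Ctsd and Cebpb the erythroid list and for Cst3 the platelet list. A gene was left out of its own list, so Lyz2 was set against a monocyte sum without Lyz2. Grn was at 27.1 and 26.0 normalized CPM before and 37.8 and 39.0 after CMG in the AngII model, with a log2 fold change of 0.55 (SE 0.29), and at 31.2 and 37.8 before and 46.3 and 26.0 after it under DOCA–HS, with 0.09 (SE 0.49). Psap, which encodes prosaposin, had 0.03 (SE 0.41) and 0.98 (SE 0.68), and its highest level, 549, was in DOCA–HS replicate 2 after CMG. That maximum depended on the scale. With total counts, Psap was at 188 CPM in this library, where all libraries ranged from 145 to 285.

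**Figure D4:**
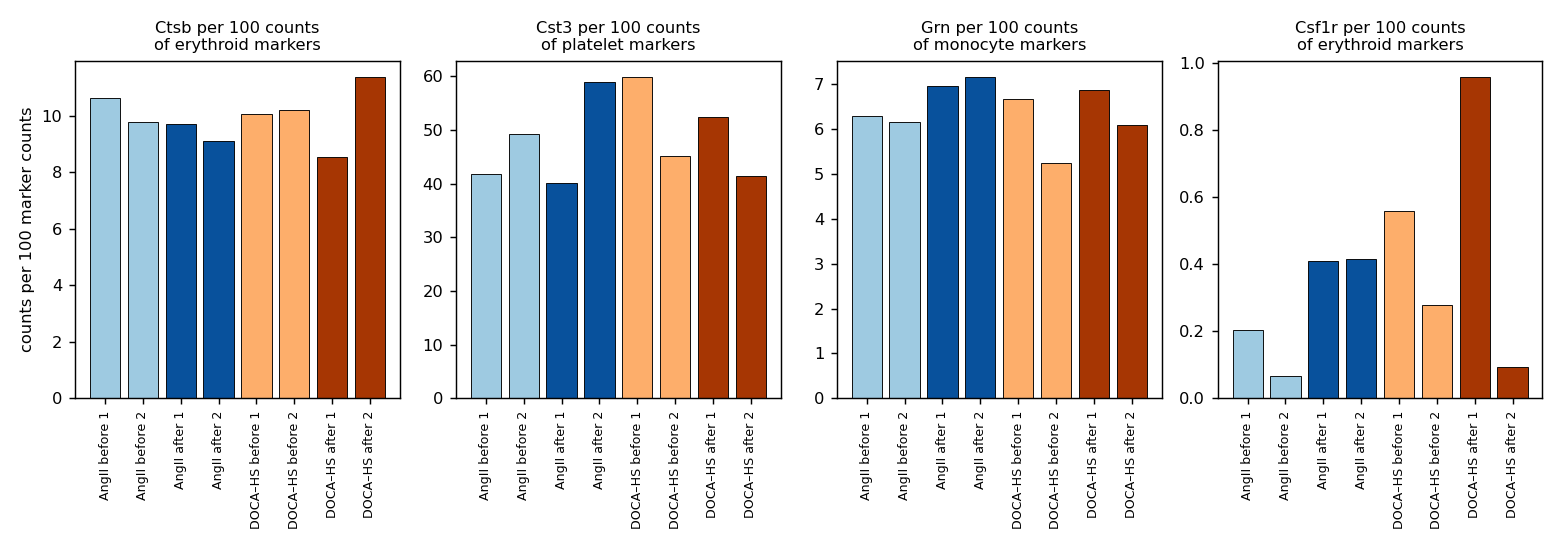
Bars give counts of a lineage gene per 100 summed counts of a marker list in each library, from an axis at 0. Ctsb per erythroid markers, Cst3 per platelet markers and Grn per monocyte markers stay within 1.33-fold, 1.49-fold and 1.36-fold, while Csf1r per erythroid markers spans 14.1-fold.

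Of the remaining lineage genes, Mpeg1, which encodes the pore-forming protein perforin-2 of macrophages, was at 17.0 and 11.7 normalized CPM before and 21.4 and 24.9 after CMG in the AngII model. For DOCA–HS rats, Mpeg1 was at 26.6 and 23.5 before and 41.8 and 9.14 after CMG, with the 2 libraries after CMG on either side of those before it. The values of log2 fold change were 0.70 (SE 0.33) and 0.09 (SE 0.64), and the DOCA–HS value was -0.28 when total counts set the scale. Aif1, which encodes the actin-bundling protein Iba1, had 0.16 (SE 0.32) and 0.97 (SE 0.52).

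The relation of lineage genes to each other differed between libraries. Csf1r counts per 100 Lyz2 counts were 11.7 and 4.85 before and 20.4 and 12.4 after CMG under AngII, and 15.8 and 6.30 before and 21.0 and 9.57 after it under DOCA–HS. The ratio did not overlap in the AngII model and overlapped in the DOCA–HS model. Tnfaip2 counts per 100 Csf1r counts were 0.759 and 5.61 before and 3.29 and 6.74 after CMG under AngII, and 3.70 and 5.63 before and 7.94 and 8.51 after it under DOCA–HS. Relative to Csf1r, Tnfaip2 overlapped in the AngII model and was higher in both DOCA–HS libraries after CMG, where 8.51 came from 4 Tnfaip2 and 47 Csf1r counts. Fcgr3a counts per 100 Fcgr2b counts were 142 and 54.9 before and 429 and 275 after CMG in the DOCA–HS model, without overlap, and 222 and 125 before and 364 and 221 after it under AngII, with overlap. The value of 275 came from 11 Fcgr3a and 4 Fcgr2b counts. These ratios within a library do not depend on the scale between libraries, and no test was run on them. The share of all gene pairs without overlap was not computed, so the lack of overlap is a description.

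The change after CMG was also compared between the models. None of the 33 lineage genes met the criterion for a difference in edgeR or DESeq2, with 2.25% of all 7994 genes called higher and 0.913% lower in the DOCA–HS model, and Fcgr2b was the only one with an unadjusted p of at most 0.05, where 2.53% of all genes were higher and 1.21% lower at that p. The difference was above 0 for 13 of 33 lineage genes and for 44.5% of all genes. The median difference, DOCA–HS minus AngII, was -0.29 for lineage genes and -0.12 for all genes. Without DOCA–HS replicate 2 after CMG, the lineage median was 0.00. Without replicate 1 of that group, it was -0.80 with an all-gene median of -0.50, and 3 lineage genes met the criterion as higher and 5 as lower, against 8.83% and 14.4% of all genes. The difference for Tnfaip2 was -0.89 (SE 0.82), for Clec4a3 -0.87 (SE 0.77), for Itgam -1.19 (SE 0.75) and for Cst3 1.89 (SE 1.08).

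Before CMG, Tnfaip2 was higher in DOCA–HS than in AngII blood, with a log2 fold change of 1.90 (SE 0.64, adjusted p = 0.992 in edgeR). It was the 1 of 33 lineage genes called upregulated, with 0.425% of all genes called so, and none was called downregulated, with 0.413% of all genes. Without AngII replicate 1 before CMG, which had 4 Tnfaip2 counts, the value was 1.08. Sirpa was higher by 0.97 (SE 0.37, adjusted p = 0.992) and Cebpb lower at -0.90 (SE 0.41, adjusted p = 0.992) without reaching the fold limit. Libraries of the DOCA–HS model lay above those of the AngII model without overlap for 13 of 33 lineage genes, against 24.3% of all genes, and below them for 3 of 33, against 21.2%. The median over the lineage genes was 0.31, against 0.06 for all genes. The before libraries were taken at week 1 in the AngII model and week 3 in the DOCA–HS model, so that model and week cannot be told apart.

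Other genes of these pathways were counted from lists chosen beside the lineage genes. Of 10 tested ligands and signaling genes of the colony-stimulating factors, 12 other myeloid transcription factors, 10 partners of activating receptors and integrins and 14 other lysosomal genes, none was called in the AngII model, with medians of 0.48, 0.20, 0.67 and 0.15. With DOCA–HS, the medians were -0.05, 0.15, 0.00 and 0.16, and Hexa, which encodes a subunit of the lysosomal enzyme hexosaminidase A, was the only gene called, at 1.68 (SE 0.56, adjusted p = 0.997 in edgeR). Hexa also differed between the models, at 1.84 (SE 0.74), as did the transcription factor gene Cebpd, at -1.77 (SE 0.74).

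Markers of other blood cells differed before and after CMG in both directions. Their calls stand beside 0.903% of all genes upregulated and 0.333% downregulated under AngII, and 1.79% and 0.259% under DOCA–HS. Of 7 tested genes of cytotoxic lymphocytes, Gzma, Tbx21 and Klrb1a were upregulated in the AngII model, with log2 fold changes of 1.59 (SE 0.30), 2.65 (SE 0.39) and 1.77 (SE 0.68), and the summed level of the list was 32.3 and 35.1 normalized CPM before and 74.7 and 67.3 after CMG. Natural killer cells also carry the products of Itgam and Tyrobp and an activating IgG receptor, which may or may not be the one counted as Fcgr3a, and the part of these cells in the values of these genes was not tested. On the TMM scale, summed T cell markers were lower after CMG without overlap in both models, at 182 and 211 normalized CPM before and 116 and 158 after it under AngII and at 192 and 199.8 before and 129 and 154 after it under DOCA–HS. None of 8 T cell genes was called in either model, and with total counts as the scale the AngII libraries overlapped, at 176 and 164 CPM before and 107 and 216 after CMG. Summed B cell markers were at 125 and 93.2 before and 71.3 and 35.2 after CMG under DOCA–HS, where 0 of 7 genes had a log2 fold change above 0 and none was called, and they overlapped under AngII, where 5 of 7 were above 0. With DOCA–HS, Gzma was upregulated at 1.89 (SE 0.59), and the neutrophil granule genes Ngp and Lcn2 were downregulated at -3.27 (SE 1.05) and -4.02 (SE 1.42), each with at most 6 counts in the libraries after CMG. Summed neutrophil markers were at 132 to 438 normalized CPM before and 200.1 to 499 after CMG in that model. Of 3 endothelial markers tested in the AngII model, Kdr was upregulated at 2.43 (SE 0.88) from 5 and 0 counts before and 9 and 19 after CMG, while Esam had -0.32 (SE 1.34) and Vwf -0.03 (SE 0.75). Vwf, also a platelet gene, was upregulated in the DOCA–HS model at 1.92 (SE 0.70), where Esam, the other gene tested, had 0.03 (SE 0.73). Hepatocyte genes such as Alb, which encodes albumin, were too low to be tested, and they summed to 0 or 1 counts in each library before CMG and to 6 to 23 counts, or 0.814 to 6.33 normalized CPM, in each library after it, without overlap in either model. Their part in the values of lineage genes was not tested. Genes of heart muscle and fibroblasts summed to at most 0.703 and 0.629 normalized CPM in any library.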

How the data were processed

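The authors extracted RNA from whole blood of 8 samples, sequenced single-end reads, aligned them with HISAT2 to the rn6 genome and counted reads per gene by strand with HTSeq. They state that hemoglobin annotations were removed, yet Hbb and LOC100134871 are in the deposited counts. The deposited values are raw counts of 17446 genes in 8 libraries, with 0 further columns.

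Groups were taken from the sample titles. Counts were tested with edgeR 4.0.16 (limma 3.58.1, R 4.3.3) by the quasi-likelihood test after filterByExpr and TMM normalization, with Benjamini–Hochberg adjustment over all genes tested. Each model was fitted alone (4 libraries), and 8 libraries were used for the average over both models, the difference between models and the comparison before CMG, 5 comparisons in all. A call was a log2 fold change beyond 1.5 with an unadjusted p of at most 0.05. Standard errors were computed from the fold change and the F statistic. Normalized CPM used 1 set of TMM factors over 8 libraries, while fold changes within a model used the factors of its 4 libraries. Counting error limits the precision of values from few counts.

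The lineage genes and all other lists were chosen with earlier results of these data known. Values in every library were given for lineage genes called in any comparison, for those whose mean count reached 10 and that had no overlap in the same direction in both models, and for a fixed gene or genes of each role; other lineage genes shown with library values (Ctsb, Cst3, Grn, Itgam, Fcgr2b) were chosen after their values were seen. Alternatives were DESeq2 1.42.0, other scaling, no filter or at least 10 counts in every library, the replicate number as a block, and each library left out, and, chosen after seeing the data, total counts for summed markers of other cells. Scripts were tested on simulated data. Promoter windows came from RefSeq (GRCr8). Replicates were compared by chi-square, and no pair of libraries agreed within sampling noise.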

Additional observations from a re-analysis of the deposited data

Results flagged for a closer look

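Fcgr2b, the inhibitory receptor for IgG, differed between the models in its change after CMG by -1.27 on the log2 scale (DOCA–HS minus AngII, adjusted p = 0.881 in edgeR). Its level was higher in both libraries after CMG than in both before it in the AngII model and lower in both in the DOCA–HS model. DESeq2 gave -1.25 with an unadjusted p above 0.05. With each library left out in turn, the difference stayed between -1.503 and -1.12, and the unadjusted p in edgeR ranged from 0.031 to 0.111.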

How the results depend on the processing

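DOCA–HS replicate 2 after CMG held few counts outside hemoglobin, and several lineage genes rested on under 10 counts in single libraries, which limits the precision of their values. With 2 libraries per group, most calls turned on 1 library. Tnfaip2 was called upregulated in the AngII model under every alternative tried except the minimum of 10 counts per library, which removed it. In the DOCA–HS model, it was not called by DESeq2 (unadjusted p above 0.05), with total counts (1.00) or total counts outside hemoglobin (1.22), or with the replicate block (1.39), and leaving out a library gave 0.38 to 1.95. Of 350 values of single genes under other tools, scales, filters or the block, 311 kept their direction and their side of the criterion and 20 changed sign, and of 240 with a library left out, 200 kept both and 17 changed sign. Except for the minimum of 10 counts, which removes genes, the cause was not tested.

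With total counts, 6 lineage genes were called upregulated under AngII (2.92% of all genes; lineage median 0.98, all-gene median 0.36), 0 under DOCA–HS (0.00%; -0.24 and -0.76) and 2 before CMG (0.525%; 1.14 and 0.86), and the median difference between models was -1.19 against -1.21 for all genes. With total counts outside hemoglobin, 7 were called upregulated under AngII (3.12%; 1.01 and 0.38), 0 under DOCA–HS (0.259%; 0.059 and -0.41) and 3 before CMG (3.49%; 1.05 and 0.78), and 2 were lower in the difference between models (1.88%; -1.02 and -0.89). Under the minimum of 10 counts per library, 0 were called in each model, in the average and before CMG, as fewer genes were tested, and the DOCA–HS median was 0.22. DESeq2 size factors in edgeR gave 2 calls under DOCA–HS (2.09% of all genes upregulated), and no filter gave 1 in the difference between models (3.7% of all genes called higher). Plac8 in the AngII model turned to 0.19 and 0.20 with total counts and total counts outside hemoglobin, and Psap turned to -0.00042 with DESeq2 and -0.00012 with its size factors. In the DOCA–HS model, total counts turned Csf2ra to -0.053, Ctsb to -0.40, Ctsd to -0.75, Ctss to -0.46, Fcgr1a to -0.18, Mpeg1 to -0.28, Psap to -0.20, Sirpa to -0.27, Spi1 to -0.49 and Tyrobp to -0.28. Total counts outside hemoglobin turned Ctsd to -0.082, Ctss to -0.11, Mpeg1 to -0.12 and Spi1 to -0.076, and the count minimum turned Mpeg1 to -0.034.

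With a library left out, calls ranged from 1 to 7 in the AngII model (median 0.42 to 0.86), 0 to 6 in the DOCA–HS model (median -0.092 to 0.57), 1 to 3 in the average and 0 to 8 in the difference (median -0.80 to 0.00040), and the median before CMG was 0.19 to 0.54. In the AngII model, values ranged from -2.35 to 0.60 for Cst3, -0.27 to 0.95 for Fcer1g and -0.43 to 0.34 for Psap. In the DOCA–HS model, they ranged from -0.17 to 1.13 for Clec4a3, -0.55 to 1.13 for Csf1r, -0.40 to 1.71 for Ctsb, -1.11 to 1.60 for Ctsd, -1.27 to 2.19 for Cx3cr1, -1.71 to 0.56 for Itgam, -0.57 to 0.25 for Lyz2 and -1.46 to 0.75 for Mpeg1.

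Libraries with the same replicate number deviated together from their group means (r = 0.41 for AngII and 0.31 for DOCA–HS over 7994 genes), but only 2 numbers are shared and the labels do not pair them. The authors describe blood sampling of the rats at both times, while the sample labels give cardiac puncture. Whether libraries before and after CMG come from the same rats is therefore not known. With the replicate block, 3 lineage genes were called in the AngII model (Clec4a3, Cx3cr1 and Tnfaip2, against 1.14% of all genes upregulated) and 8 had an adjusted p under 0.05 in edgeR, where 165 genes did in all (2.29%). For DOCA–HS, 0 were called with the block, Mpeg1 turned to -0.22, and the difference between models had 1 call, Cst3, against 4.12% of all genes called higher.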
